A study of Mus musculus with 15 samples.

Results

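The comparison set inguinal adipocytes from mice given CL316243 (CL) against inguinal adipocytes from mice given roscovitine (RS) or rosiglitazone (RG), and asked which transcripts differed under adrenergic stimulation from their level under both other treatments. Its members were 8 of the 15 arrays of the study, taken by their labelled treatment: CL 1, CL 3 and CL 4, RS 3 and RS 4, and RG 2, RG 3 and RG 4. A difference is the mean of the 3 CL arrays minus the average of the RS mean and the RG mean, so that RS and RG count equally although RS had 2 arrays and RG had 3. The series' design text gives 3 to 4 samples per group, and any RS sample beyond these 2 was not analysed here.

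RNA of fat cells isolated by cell sorting was hybridised to Affymetrix arrays, also for brown fat (BAT, 3 arrays) and for UCP1-negative cells of inguinal fat (WAT, 4 arrays), both of untreated mice. All 8 arrays compared held cells gated as positive for UCP1, the mitochondrial protein that lets brown and beige fat release energy as heat, from the inguinal fat of mice aged 8 to 10 weeks, kept at 21 °C on standard chow. CL316243 is a selective agonist of the beta3-adrenergic receptor. Roscovitine inhibits cyclin-dependent kinases, among them CDK5, which phosphorylates the nuclear receptor PPARG. Rosiglitazone is a PPARG agonist. The labels call the cells of CL and RG beige and those of RS brite, names used for the same kind of cell. They call the mice UCP1/Tomato but the gate UCP1(GFP), which leaves unclear what reporter was sorted on, and they give no dose, treatment time or sex. UCP1-positive inguinal cells of untreated mice are not among the arrays, so a difference gives CL relative to RS and RG and not the effect of a drug. The labels do not say whether arrays of a group came from separate mice, and p-values therefore measure the spread between these samples, which may be technical.

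Beige adipocytes are fat cells of white depots that take on a heat-producing programme. Noradrenaline, or a beta3 agonist in its place, acts on G-protein-coupled receptors that raise cyclic AMP, which drives the breakdown of stored triglyceride and the transcription of Ucp1 and its partner genes through protein kinase A. PPARG is the nuclear receptor that sets the adipocyte programme, and its ligands can induce Ucp1 without an adrenergic signal.

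The deposited values are log2 expression values, so a difference of 1 is a change of 2-fold. Medians of the 8 arrays lay between 3.35 and 3.46. Adipoq, which encodes the hormone adiponectin made by mature adipocytes, read 9.87 to 11.04 on these arrays. Markers of other cell types moved with the groups. Over 20 endothelial markers, the mean difference from the 15-array mean was 0.71, 1.22 and 0.18 on CL 1, CL 3 and CL 4. On RS 3 and RS 4 it was -2.08 and -0.06, and on RG 2, RG 3 and RG 4 it was -1.17, -0.93 and 0.08. RS 3 thus stood lowest, and RS 4 and RG 4 lay nearest to the CL arrays. Each result below was also computed with each of the 8 arrays left out in turn, and arrays whose absence ended the call of a gene described are named beside it.

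In the comparison, 528 of 25206 probe sets passed the threshold, an adjusted p under 0.05 in limma, which is 2.09% of all probe sets. Of these, 323 were higher in CL (1.28% of all probe sets) and 205 were lower (0.813%). The higher ones had a median fold of 1.97 and the lower ones a median fold of 1.88, and 156 and 83 of them passed 2-fold. The largest increase was 12.2-fold and the largest decrease 3.85-fold. In 484 of the 528 the CL arrays lay wholly outside the range of the 5 RS and RG arrays, as in 9.76% of all probe sets. Higher probe sets made up 61.2% of the calls, but 51.2% after quantile normalization between arrays (289 higher and 276 lower). Among 6036 probe sets with a mean above 5, 105 were higher and 89 lower. Olfactory and vomeronasal receptors, 1354 probe sets in all, gave 29 of the higher calls and 4 of the lower ones. The median difference over all probe sets was 0.025, and 53.3% were above 0.

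The number of calls depended on single arrays. It was 212 without CL 1, 107 without CL 3, 272 without CL 4, 239 without RS 3, 888 without RS 4, 235 without RG 2, 296 without RG 3 and 478 without RG 4. A core of 62 probe sets, 38 higher and 24 lower, kept the call whichever array was left out. In a fit with the titles' replicate number as a block, 12 probe sets were called, 9 higher and 3 lower. Of the genes described below, Elovl3, Phospho1, Acot11, Acsl5, Alpl, Kcnc2, Gnao1, F2r, Chd3, Rnd3 and Rrp7a kept the call in that fit. All other calls described below were lost in it. Unless the block is named, adjusted p-values below are of fits without it and may be too small.

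Elovl3 and Ucp1, both of the thermogenic programme, had the largest increases of any gene named by the rule. Of 30 measured members of a list of this programme, 8 were higher in CL and 1 was lower, with a median difference of 0.51 where all probe sets had 0.025, and 26 of the 30 were above 0. The higher members were Elovl3, Ucp1, Slc27a2, Cox7a1, Acot11, Pank1, Letmd1 and Plin5, and the lower one was Irf4. The list gave 5 higher members without CL 1, without CL 3 and without RS 3.

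Elovl3, a fatty acid elongase of brown fat that is induced by cold, came first. It read 9.05, 8.98 and 8.70 on CL 1, CL 3 and CL 4, against 4.67 and 5.71 on RS 3 and RS 4 and 5.06, 5.02 and 6.17 on RG 2, RG 3 and RG 4. The CL arrays lay close together and well above all others, of which RG 4 was highest. The difference was 3.61 ± 0.341 (SE), or 12.2-fold (limma, adjusted p = 0.00018). Ucp1 itself read 10.53, 10.52 and 10.19 in CL, 6.05 and 8.43 in RS, and 7.69, 7.96 and 8.88 in RG. The groups did not overlap although every array held cells gated as positive for UCP1, and the RS arrays lay far apart, with RS 3 lowest. The difference was 2.71 ± 0.448, or 6.52-fold (adjusted p = 0.0101), and 2.11 without RS 3.

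Cox7a1, a subunit of cytochrome c oxidase, read 9.20, 9.22 and 9.87 in CL, 6.71 and 7.59 in RS, and 7.53, 7.34 and 8.07 in RG. All CL arrays were above all others, and the difference was 2.03 ± 0.296, or 4.09-fold (limma, adjusted p = 0.00569). Slc27a2, which activates and takes up very long-chain fatty acids, read 5.98, 6.21 and 4.97 in CL, 3.97 and 3.42 in RS, and 3.20, 2.96 and 4.43 in RG. CL 4 was the lowest CL array and RG 4 the highest of the others, and they did not overlap. The difference was 2.11 ± 0.326, or 4.31-fold (adjusted p = 0.00815). Acot11, a thioesterase that cuts fatty acyl-CoA and is induced in brown fat by cold, read 5.72, 6.28 and 6.37 in CL, 4.52 and 4.29 in RS, and 3.93, 3.85 and 4.59 in RG. The groups were again separate, and the difference was 1.86 ± 0.216, or 3.63-fold (adjusted p = 0.00123). These 5 genes kept the call without any one array. With the replicate number as a block in limma, Elovl3 and Acot11 kept it. Ucp1 (adjusted p = 0.103), Slc27a2 (adjusted p = 0.0866) and Cox7a1 (adjusted p = 0.0766) lost it there.

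CL 4, RS 4 and RG 4 had endothelial marker levels of 0.18, -0.06 and 0.08. On these arrays Elovl3 read 8.70, 5.71 and 6.17, Cox7a1 read 9.87, 7.59 and 8.07, and Ucp1 read 10.19, 8.43 and 8.88. Acot11 read 6.37, 4.29 and 4.59 there. Slc27a2 read 4.97, 3.42 and 4.43, so that RG 4 came close to CL 4. The arrays are 1 of each treatment, chosen by their endothelial levels after the values were seen, and no test was made on them. The part of other cells in these differences was not tested. Markers of the mature adipocyte had a mean level of 0.09, 0.02 and 0.49 on the CL arrays, 0.29 and 0.34 on the RS arrays, and 0.27, 0.24 and 0.60 on the RG arrays, which overlap. In sorted bulk cells, fewer cells of a type and less RNA per cell cannot be told apart.

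**Figure D1:**
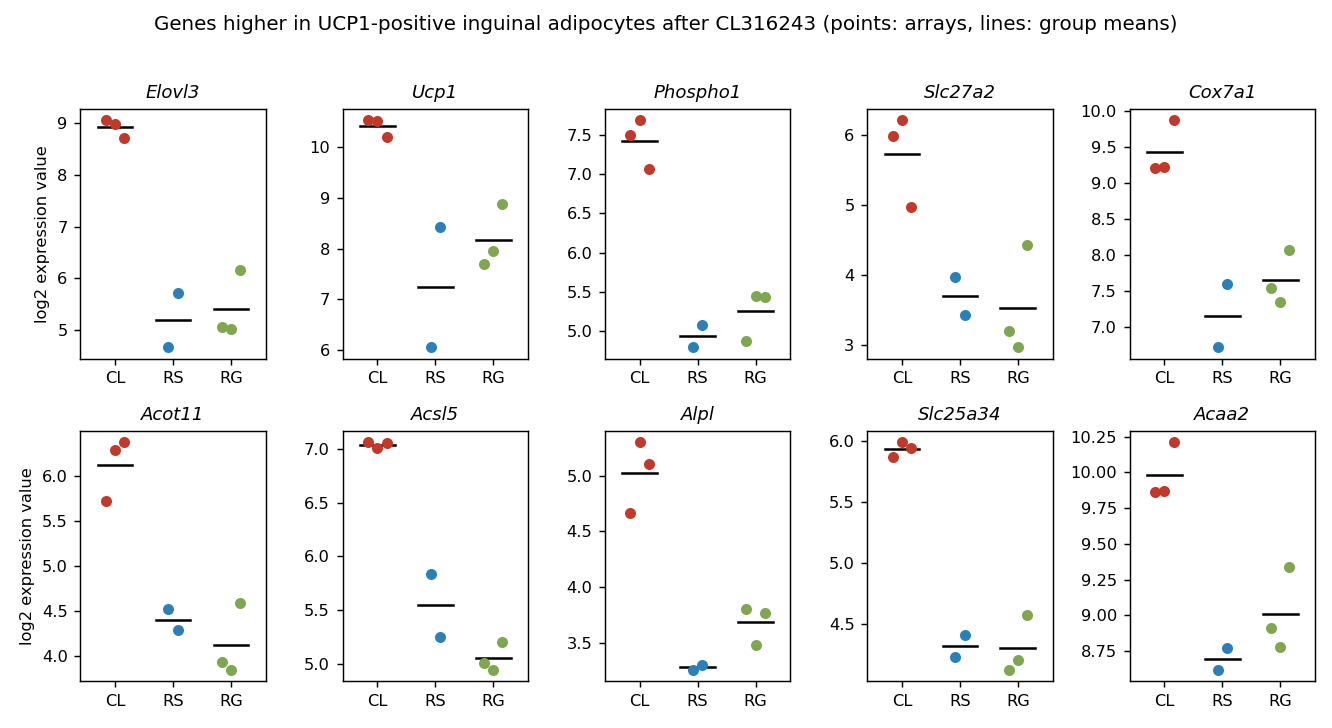
Log2 expression of 10 genes higher in CL, with 1 point per array for CL (3 arrays), RS (2) and RG (3) and a line at each group mean. For each of the genes the 3 CL points lie above the 5 RS and RG points; Elovl3 shows the widest gap, from 8.70 to 6.17.

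Other members of the thermogenic list lay on both sides of the threshold. Pank1, which makes coenzyme A, was higher by 1.13 (limma, adjusted p = 0.0204), Letmd1, a mitochondrial protein needed for heat production in brown fat, by 1.03 (adjusted p = 0.0215), and Plin5, a lipid droplet coat protein that ties droplets to mitochondria, by 0.94 (adjusted p = 0.0386). Pank1 lost its call without CL 1, CL 3, CL 4 or RS 3, Letmd1 without these or RG 2, and Plin5 without any array other than CL 4 and RG 4. Several well-known members did not pass the test. Ppargc1a, the coactivator that drives mitochondrial biogenesis, differed by 0.12 (adjusted p = 0.873), and its sign was negative without CL 4 or without RS 4. Prdm16, the transcriptional regulator of brown and beige identity, differed by -0.12 (adjusted p = 0.775), and Dio2, the deiodinase that activates thyroid hormone, by 0.57 (adjusted p = 0.384). Cidea, a lipid droplet protein widely used as a brown fat marker, differed by 1.09 (adjusted p = 0.149), and Cox8b, another cytochrome c oxidase subunit, by 0.79 (adjusted p = 0.197). Ppara, the nuclear receptor for fatty acid oxidation, differed by 0.97 (adjusted p = 0.109). Cidea, Cox8b and Ppara are given beside the called members and were chosen after their values were seen.

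Irf4, a transcription factor that works with Ppargc1a on thermogenic genes, was the only member of the list called lower. It read 5.10, 5.21 and 5.67 in CL, 6.98 and 6.05 in RS, and 6.19, 6.28 and 6.29 in RG. All CL arrays were below all others, and RS 3 was highest. The difference was -1.06, or 2.08-fold lower (limma, adjusted p = 0.0215), and the call was lost without CL 1, CL 3 or RS 3 (adjusted p up to 0.0938 over the fits with 1 array left out).

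A list of genes of creatine and calcium cycling gave a few calls, all higher in CL. Of 20 measured members, 3 were higher and 0 lower, with a median of 0.13, and 2 of the higher ones were phosphatases. Phospho1, a phosphatase of phosphocholine and phosphoethanolamine, read 7.50, 7.69 and 7.07 in CL, 4.79 and 5.07 in RS, and 4.87, 5.45 and 5.43 in RG. Its groups lay far apart, with a difference of 2.33 ± 0.219, or 5.03-fold (limma, adjusted p = 0.00018). Alpl, tissue-nonspecific alkaline phosphatase, which has been placed in the hydrolysis of phosphocreatine, read 4.67, 5.30 and 5.11 in CL, 3.26 and 3.30 in RS, and 3.80, 3.48 and 3.77 in RG. The CL arrays were all above the others, by 2.92-fold on average (adjusted p = 0.00109). Both kept the call without any one array. Itpr2, a calcium release channel of the endoplasmic reticulum, differed by 0.73 (adjusted p = 0.0324), a call that held in 1 of the 8 fits with an array left out, the one without RG 4.

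Fatty acid oxidation gave a few calls, all higher in CL. Of 22 measured members of the mitochondrial pathway, 2 were higher and 0 lower, with a median of 0.35 and 18 members above 0. Slc25a20, the carrier that brings acylcarnitine into mitochondria, read 8.68, 8.61 and 8.91 in CL, 7.66 and 7.13 in RS, and 7.72, 7.49 and 8.03 in RG. Acaa2, the thiolase of the last step of the cycle, read 9.86, 9.87 and 10.21 in CL, 8.62 and 8.77 in RS, and 8.91, 8.78 and 9.34 in RG. Neither gene's groups overlapped, and RG 4 was the nearest of the other arrays for both. Slc25a20 differed by 1.16 ± 0.196, or 2.24-fold (limma, adjusted p = 0.0101), and Acaa2 by 1.13 ± 0.173, or 2.18-fold (adjusted p = 0.00805). Both kept the call without any one array. Acsl5, an enzyme that activates long-chain fatty acids and was chosen after its values were seen, read 7.06, 7.01 and 7.05 in CL, 5.84 and 5.25 in RS, and 5.01, 4.95 and 5.21 in RG. The CL arrays lay within 0.05 of each other, and the difference was 1.74 ± 0.166, or 3.34-fold (adjusted p = 0.00018). Of 28 members of peroxisomal oxidation, Slc27a2 and Acaa1b, a peroxisomal thiolase, were higher. The call of Acaa1b (1.21, adjusted p = 0.0454) held only without RG 4, so that the list gave 1 member without each other array.

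Most other mitochondrial genes had small differences above 0. Of 68 subunits of the respiratory complexes, 65 were above 0, with a median of 0.30, but only Cox7a1 and Atp5e, a subunit of ATP synthase, passed the test. Atp5e (0.80, adjusted p = 0.0395) lost its call in each of the 8 fits with an array left out, which leaves 1 member there. Of 26 genes of the tricarboxylic acid cycle, 23 were above 0 with a median of 0.35, and 0 passed in limma (7 higher and 0 lower at an unadjusted p under 0.05, where all probe sets gave 10.5% and 7.49%). Of 74 proteins of the mitochondrial ribosome, 56 were above 0 with a median of 0.17, and 0 passed (10 higher and 0 lower unadjusted). Among 32 mitochondrial carriers and genes of fusion and fission, 3 were higher and 0 lower. They were Slc25a20, Gabpa and Slc25a34. Slc25a34, a carrier of the mitochondrial family, read 5.87, 5.99 and 5.94 in CL, 4.23 and 4.41 in RS, and 4.13, 4.21 and 4.58 in RG. It was 3.07-fold higher (adjusted p = 0.00803) with no overlap, whichever array was left out. Gabpa, a transcription factor of nuclear genes for mitochondrial proteins, was higher by 0.76 (adjusted p = 0.0125) and lost its call without CL 3.

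The receptor and cyclic AMP machinery upstream of these genes showed 1 call among 19 measured members. Adcy5, an adenylate cyclase that makes cyclic AMP, was lower in CL. It read 6.19, 6.28 and 6.50 in CL, 8.22 and 6.87 in RS, and 7.74, 7.46 and 8.10 in RG. The CL arrays were tight and below all others, of which RS 4 was nearest. Adcy5 differed by -1.33, or 2.52-fold lower (limma, adjusted p = 0.0215), and the call was lost without CL 1, CL 3 or RS 3 (up to 0.0876). Other cyclases and a cyclic AMP sensor had positive differences that did not pass: Adcy3 by 1.12 (adjusted p = 0.062), Adcy4 by 1.45 (adjusted p = 0.0672) and Rapgef3, an exchange factor bound by cyclic AMP, by 1.05 (adjusted p = 0.09). Adcy3 passed without RS 3 or RG 4, and Adcy4 without RS 4. Among 16 phosphodiesterases, which break down cyclic nucleotides, Pde7b was higher by 0.78 (adjusted p = 0.0454), a call that held only without RS 3. Pde1a differed by -0.84 (adjusted p = 0.0562) and passed without RG 3.

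Transcripts known to respond to cyclic AMP gave calls in both directions. Of 30 measured members, 1 was higher and 4 were lower, and the median was -0.06. Il6, a cytokine, read 4.52, 4.52 and 4.45 in CL, 4.90 and 5.36 in RS, and 5.36, 5.38 and 5.41 in RG. The CL arrays were nearly equal and below all others, and the difference was -0.76 (limma, adjusted p = 0.015), lost without CL 3. Nfil3, a transcriptional repressor, differed by -0.83 (adjusted p = 0.0125), Irs2, an adaptor of the insulin receptor, by -0.66 (adjusted p = 0.0215), and Id3, an inhibitor of helix-loop-helix factors, by -0.71 (adjusted p = 0.0443). Nfil3 lost its call without CL 1 or CL 3, Irs2 without these or RG 2, and Id3 without any array other than RS 4 and RG 4. Id1, a close relative of Id3, went the other way by 1.39 (adjusted p = 0.0202). The list gave 1 lower member without CL 1, 0 without CL 3 and 2 without RG 2, and Id1 lost its call without CL 1, CL 3 or RS 3.

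Immediate early genes, which answer many signals and also cell dissociation, gave calls that were mostly lower. Of 24 measured, 1 was higher and 3 lower, with a median of -0.31 and 6 above 0. Myc, a transcription factor of growth, read 7.04, 7.18 and 6.91 in CL, 7.96 and 8.46 in RS, and 8.71, 8.65 and 7.96 in RG. Btg2, which restrains proliferation, read 7.30, 7.59 and 7.74 in CL, 8.33 and 8.52 in RS, and 8.84, 8.95 and 8.45 in RG. Both had all CL arrays below all others whichever treatment those had. Myc was 2.43-fold lower (limma, adjusted p = 0.0101), and Btg2 differed by -1.04 (adjusted p = 0.0101), and both kept the call without any one array. Egr2 differed by -0.90 (adjusted p = 0.0331), a call that held only without RG 4. Klf2, a factor also high in endothelium, was higher by 0.89 (adjusted p = 0.0153), lost without CL 1 or CL 3.

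Promoters show which of these genes carry a cyclic AMP response element near the start of transcription. The full element TGACGTCA and its shorter form TGACG (the short site), which the full element contains, were searched on both strands from 250 bases before to 50 bases after each start in RefSeq promoters (GRCm38.p6). Of 32851 promoters, 1.79% held the full element and 20.8% the short site. Among named genes the full element was found at Dio2, Pnpla3, Btg2 and Peg3, whose upstream 250 bases are printed because they hold it, 5′ to 3′ on the gene's strand with the element in capitals. Of these, Btg2 and Peg3 were lower in CL, while Dio2 and Pnpla3, a lipase family gene of lipid droplets, did not pass the test (differences of 0.57 and -0.77). Ucp1 and Phospho1 held only the short site in this window and are printed, chosen after their values were seen, because they were among the largest increases.

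Dio2: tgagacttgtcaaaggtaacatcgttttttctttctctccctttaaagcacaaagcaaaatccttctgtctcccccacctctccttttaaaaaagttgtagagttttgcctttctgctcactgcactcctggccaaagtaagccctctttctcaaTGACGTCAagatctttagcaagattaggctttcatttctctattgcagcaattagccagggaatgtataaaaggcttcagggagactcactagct
Pnpla3: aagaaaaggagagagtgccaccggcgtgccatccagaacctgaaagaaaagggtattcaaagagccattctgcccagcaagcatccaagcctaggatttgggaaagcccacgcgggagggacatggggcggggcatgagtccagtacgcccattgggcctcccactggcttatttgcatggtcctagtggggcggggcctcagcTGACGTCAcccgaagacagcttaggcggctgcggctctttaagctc
Btg2: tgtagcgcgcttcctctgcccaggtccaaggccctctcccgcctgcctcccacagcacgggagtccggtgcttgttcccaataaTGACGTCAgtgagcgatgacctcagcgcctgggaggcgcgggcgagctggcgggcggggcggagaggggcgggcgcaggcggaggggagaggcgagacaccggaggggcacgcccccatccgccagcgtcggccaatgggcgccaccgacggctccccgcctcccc
Peg3: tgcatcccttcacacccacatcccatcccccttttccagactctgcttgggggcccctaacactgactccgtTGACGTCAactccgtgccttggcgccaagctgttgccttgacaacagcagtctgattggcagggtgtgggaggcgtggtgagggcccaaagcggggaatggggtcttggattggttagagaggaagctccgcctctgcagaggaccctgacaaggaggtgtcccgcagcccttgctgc
Ucp1: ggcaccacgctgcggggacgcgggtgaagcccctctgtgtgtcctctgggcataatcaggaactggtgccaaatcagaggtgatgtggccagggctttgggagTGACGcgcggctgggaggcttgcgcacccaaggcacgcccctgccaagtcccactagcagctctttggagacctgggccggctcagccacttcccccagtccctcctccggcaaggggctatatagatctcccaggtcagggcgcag
Phospho1: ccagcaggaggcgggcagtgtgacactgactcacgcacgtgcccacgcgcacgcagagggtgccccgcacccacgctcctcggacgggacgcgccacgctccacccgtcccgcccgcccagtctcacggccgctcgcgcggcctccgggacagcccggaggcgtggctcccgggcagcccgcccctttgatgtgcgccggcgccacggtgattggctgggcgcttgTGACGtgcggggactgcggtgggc

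The printed stretches end at the base before the start site. They are chr12:90739039-90739288 on the minus strand for Dio2, chr15:84167566-84167815 on the plus strand for Pnpla3, chr1:134079156-134079405 on the minus strand for Btg2, and chr7:6730420-6730669 on the minus strand for Peg3. Ucp1 is at chr8:83290098-83290347 and Phospho1 at chr11:95824250-95824499, both on the plus strand. The first base of the motif lies 95 bases before the start at Dio2, 46 at Pnpla3, 166 at Btg2, 178 at Peg3, 147 at Ucp1 and 24 at Phospho1. Among the genes with the largest increase, 3 of 10 promoters held the short site and 0 the full element. Among those with the largest decrease, 4 of 9 held the short site and 1 the full element. A match describes these letters only and does not show binding.

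The PPARG axis, through which both other drugs are thought to act, was followed through Pparg, Cdk5 and lists of related genes. Pparg itself differed by -0.31 (limma, adjusted p = 0.337) and Cdk5, the kinase that roscovitine inhibits, by -0.18 (adjusted p = 0.609). Of 32 measured PPARG target genes, 3 were higher and 0 lower (9.38% called, against 2.09% of all probe sets), with a median of 0.03 and 17 above 0. The 3 were Ucp1, Slc25a20 and Rbp7, a retinol-binding protein that is also made in capillary endothelium (2.01, adjusted p = 0.0481). Rbp7 kept its call only without RS 4 or RG 4, and the list gave 6 higher members without either of these arrays. Of 16 genes whose expression is sensitive to CDK5 phosphorylation of PPARG, 0 passed (0 higher and 1 lower unadjusted), with a median of -0.19 and 4 above 0. Among them Rarres2, which encodes the adipokine chemerin, differed by -0.47 (adjusted p = 0.238), Peg10 by -0.39 (adjusted p = 0.28) and Nr1d1, a clock repressor, by -0.33 (adjusted p = 0.457). Of 42 cyclins, cyclin-dependent kinases and their inhibitors, 1 was higher and 1 lower. Ccnd1, a cyclin of the G1 phase, was higher by 1.03 (adjusted p = 0.0215) but lost its call without CL 3, CL 4, RS 3 or RG 2. Cdk14, a kinase of this family, differed by -0.77 (adjusted p = 0.0463), a call that held only without RG 4.

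General adipocyte markers gave no call, while most white fat markers had a difference below 0. Of 23 mature adipocyte markers, 0 passed in limma (0 higher and 1 lower unadjusted) and the median was -0.09. Adipoq read 9.91, 9.87 and 10.51 in CL, 10.80 and 10.69 in RS, and 10.54, 10.57 and 11.04 in RG. CL 1 and CL 3 were lowest, CL 4 was just below the others, and the difference of -0.63 did not pass (adjusted p = 0.478). Of 19 white adipocyte markers 1 was lower and 0 higher, with a median of -0.38 and 4 above 0, and in 8 of them all CL arrays lay below all others, as in 4.03% of all probe sets. The member called lower was Nnat, an imprinted gene for a membrane protein of the endoplasmic reticulum. It read 5.63, 5.37 and 5.12 in CL, 5.98 and 7.03 in RS, and 7.46, 7.48 and 7.40 in RG. RS 3 lay nearest to CL, and the 3.04-fold difference (adjusted p = 0.0199) was lost without CL 3 or CL 4. Lep, which encodes leptin, differed by -0.59 (adjusted p = 0.517). The lists of classical brown markers (13 measured) and beige markers (16 measured) gave 0 calls, with 2 higher and 1 lower, and 2 higher and 0 lower, unadjusted.

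Lipid handling outside oxidation gave single calls. Of 20 lipolysis genes, 1 was lower and 0 higher, with a median of -0.30 and 7 above 0. The call was Hcar2, the receptor for hydroxybutyrate and niacin that restrains lipolysis (-1.10, limma, adjusted p = 0.0204), lost without CL 1, CL 3 or RS 3. Of 22 genes of fatty acid synthesis, Fads1, a desaturase, was lower (-1.06, adjusted p = 0.0215), lost without CL 1 or CL 3. Scd3, another desaturase gene chosen after its values were seen, was higher by 1.37 (adjusted p = 0.00208) and kept the call without any one array. It read 3.85, 4.18 and 3.32 in CL and 2.34 to 2.61 on the others, low beside array medians of 3.35 to 3.46. Of 30 genes of glucose uptake, glycolysis and glycogen, Ppp1r3b, which brings a phosphatase to glycogen, was higher by 1.44 (adjusted p = 0.0215), lost without CL 1, CL 3 or CL 4. Triglyceride synthesis (17 measured), breakdown of branched-chain amino acids (23) and cholesterol synthesis and uptake (21) gave 0 calls, and at an unadjusted p under 0.05 they gave 0, 0 and 3 members in either direction.

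The 12 largest decreases were of genes with varied roles. Alkal2, a ligand of the receptor tyrosine kinase ALK, read 3.63, 3.83 and 4.55 in CL, 5.79 and 5.70 in RS, and 6.06, 6.30 and 5.24 in RG. CL 4 and RG 4 came nearest to each other without overlap, and Alkal2 was 3.49-fold lower (limma, adjusted p = 0.00903). Peg3, an imprinted zinc finger gene, read 4.51, 5.21 and 4.39 in CL, 6.04 and 6.28 in RS, and 6.41, 6.53 and 6.57 in RG. It was lower in each CL array, by 3.09-fold on average (adjusted p = 0.00803). Rnd3, a regulator of the actin skeleton, read 4.08, 3.92 and 4.30 in CL, 5.64 and 5.52 in RS, and 5.99, 5.88 and 5.39 in RG. The groups stood more than 1 log2 unit apart, and Rnd3 was 2.96-fold lower (adjusted p = 0.00228).

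Ifrd1, a transcriptional co-regulator, read 7.48, 7.01 and 6.82 in CL, 9.08 and 8.06 in RS, and 8.43, 8.30 and 8.23 in RG, and was 2.53-fold lower (limma, adjusted p = 0.00803). Rrp7a, a factor of ribosomal RNA processing, read 4.26, 3.90 and 4.57 in CL, 5.74 and 5.71 in RS, and 5.74, 5.53 and 5.90 in RG, and was 2.79-fold lower (adjusted p = 0.00124). In neither gene did a CL array reach the others. Lsmem1, a membrane protein gene, differed by -1.42 (adjusted p = 0.0124), and with Alkal2, Peg3, Rnd3, Ifrd1 and Rrp7a it kept the call without any one array. The rest of the 12 largest decreases lost the call in at least 1 fit with an array left out, although their CL arrays also lay below all others. Celsr2, an adhesion receptor with the largest decrease of a named gene (3.85-fold, adjusted p = 0.0243), and Thbs1, a matrix glycoprotein (2.95-fold, adjusted p = 0.0244), lost the call without CL 1, CL 3, RS 3 or RG 2. St6galnac5, a sialyltransferase (-1.35, adjusted p = 0.0324), lost it without these or RG 3, Rnf122, a ubiquitin ligase (-1.45, adjusted p = 0.0101), without CL 3, and Cenpu, a centromere protein (-1.55, adjusted p = 0.0386), without any array other than RS 4.

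Zbtb16, a zinc finger transcription factor induced by glucocorticoids, was lower as well. It read 6.33, 6.76 and 7.11 in CL, 7.77 and 7.61 in RS, and 8.11, 8.54 and 8.30 in RG. CL 4 was the highest CL array and still lay below RS 4, and the difference was -1.27, or 2.41-fold lower (limma, adjusted p = 0.0101), kept without any one array. Zbtb16 and Nfil3 were the 2 members called among 25 glucocorticoid and clock genes, both lower. Plagl1, an imprinted zinc finger gene chosen after its values were seen, differed by -0.88 (adjusted p = 0.0163), lost without CL 1.

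**Figure D2:**
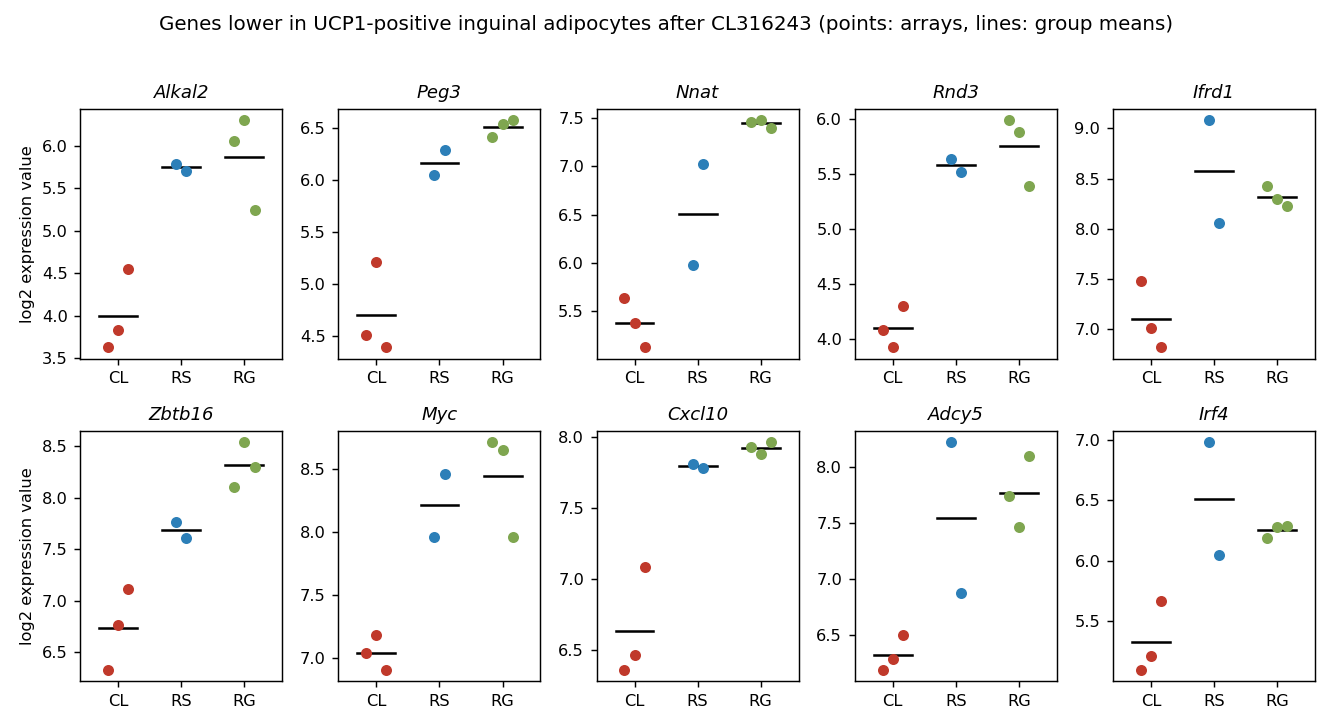
Log2 expression of 10 genes lower in CL, with 1 point per array for CL (3 arrays), RS (2) and RG (3) and a line at each group mean. For each of the genes the 3 CL points lie below the 5 RS and RG points, and Cxcl10 has its closest pair at 7.08 in CL 4 and 7.78 in RS 4.

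Genes of interferon and chemokine signalling were lower in CL where they passed. Of 27 interferon-stimulated genes, 0 were higher and 2 lower, with a median of -0.26 and 6 above 0. Cxcl10, a chemokine that attracts T cells, read 6.36, 6.46 and 7.08 in CL, 7.81 and 7.78 in RS, and 7.93, 7.88 and 7.96 in RG. The 5 RS and RG arrays lay within a narrow range above all CL arrays, and Cxcl10 was 2.34-fold lower (limma, adjusted p = 0.00972), kept without any one array. Gbp2, a guanylate-binding protein induced by interferon, differed by -1.08 (adjusted p = 0.015), and without CL 1 or CL 3 its call was lost, leaving 1 member. Ifit1 (-1.19, adjusted p = 0.128) and Rtp4 (-0.79, adjusted p = 0.144) did not pass. After these values were seen, 34 chemokine ligands were gathered by symbol, of which 0 were higher and 4 lower. The median of the 34 was 0.097 and that of all probe sets 0.025. Beside Cxcl10 the 4 were Ccl7 (-1.15, adjusted p = 0.0182), Ccl2 (-1.05, adjusted p = 0.0268) and Cxcl1 (-1.03, adjusted p = 0.0215), attractants of monocytes and neutrophils. Ccl7 lost its call without CL 3 or CL 4, Cxcl1 without these, RS 3 or RG 2, and Ccl2 without any array other than RS 3 and RG 4. Nlrc5, a regulator of class I antigen presentation (-1.28, adjusted p = 0.00906), kept the call without any one array. Irf1, a transcription factor of the interferon response (-0.81, adjusted p = 0.0371), kept it only without RS 4 or RG 4. Both were chosen after their values were seen.

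Several markers of blood vessels were higher in CL, with large differences between arrays of one treatment. Of 20 endothelial markers, 5 were higher and 0 lower, with a median of 1.81 and 19 above 0, and in 13 of them all CL arrays lay above all others, as in 5.73% of all probe sets. Kdr, a receptor of vascular endothelial growth factor, read 8.55, 9.08 and 7.95 in CL, 4.86 and 6.96 in RS, and 5.87, 6.03 and 7.31 in RG. RS 3 was lowest and RG 4 nearest to CL, and the difference was 5.17-fold (limma, adjusted p = 0.0228), lost without CL 1, CL 3, RS 3 or RG 2 (adjusted p up to 0.108). Pecam1, an adhesion molecule of endothelium, read 9.08, 9.61 and 8.51 in CL, 5.36 and 8.13 in RS, and 6.78, 7.36 and 8.44 in RG, and did not pass (1.93, adjusted p = 0.0807). CL 4 and RG 4 were nearly level. Cd93 (adjusted p = 0.0198), Egfl7 (adjusted p = 0.0228), Esam (adjusted p = 0.0414) and Gpihbp1, which holds lipoprotein lipase in capillaries (adjusted p = 0.0481), were the other calls. Cd93 lost its call without CL 1 or CL 3, Egfl7 without these, CL 4, RS 3 or RG 2, and Esam without any array other than RS 4 and RG 4.

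The count of endothelial markers called higher ran from 0 to 16 as single arrays were left out. It was 0 without CL 1, 0 without CL 3, 2 without CL 4, 1 without RS 3, 16 without RS 4, 1 without RG 2, 3 without RG 3 and 8 without RG 4. Gpihbp1, Gng11, a subunit of G proteins, and Rbp7, all among the 12 largest increases, kept their calls only without RS 4 or RG 4. Gpihbp1 and Rbp7 did not pass after quantile normalization (adjusted p = 0.058 and 0.0544). Kcnj8, a potassium channel subunit of pericytes and the only call among 12 smooth muscle and pericyte markers, was 4.23-fold higher (adjusted p = 0.04), lost without CL 1, CL 3, RS 3, RG 2 or RG 3. Rasgrp3, an activator of Ras, was 4.58-fold higher (adjusted p = 0.015), lost without CL 3 or RS 3. Among genes chosen after their values were seen, the Notch receptor Notch4 (1.41, adjusted p = 0.00918), found mainly in endothelium, kept its call without any one array. The Notch ligand Dll4 (1.85, adjusted p = 0.0215) and the ephrin Efnb2 (1.55, adjusted p = 0.0211) lost theirs without CL 1, CL 3 or RS 3.

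Markers of other cells gave single calls. Cpa3, a carboxypeptidase of mast cells, read 5.88, 6.55 and 4.63 in CL, 3.32 and 3.79 in RS, and 2.36, 3.03 and 3.31 in RG. All CL arrays were above all others, and the difference was 5.50-fold (limma, adjusted p = 0.0193), lost without CL 1, CL 3 or RS 3. It was the only call among 18 markers of mast cells and granulocytes, of which 2 had a mean above 5. Cd3e, a subunit of the T cell receptor complex, was higher by 1.31 (adjusted p = 0.0169), lost without CL 1 or CL 3. It was the only call among 18 lymphocyte markers, whose median difference was 0.51. Of these 18, 0 had a mean above 5, so their readings were low. Folr2 (0.96, adjusted p = 0.0401), a folate receptor of resident macrophages whose call held only without RG 3 or RG 4, was the only call among 24 macrophage markers. F3, tissue factor, was lower (-1.10, adjusted p = 0.015), lost without CL 1 or CL 3, the only call among 21 stromal markers. Markers of skeletal muscle, epithelium, erythroid cells and nerve gave 0 calls, with 0, 2, 1 and 2 members at an unadjusted p under 0.05. The part of these cells in the differences of the other lists was not tested.

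**Figure D3:**
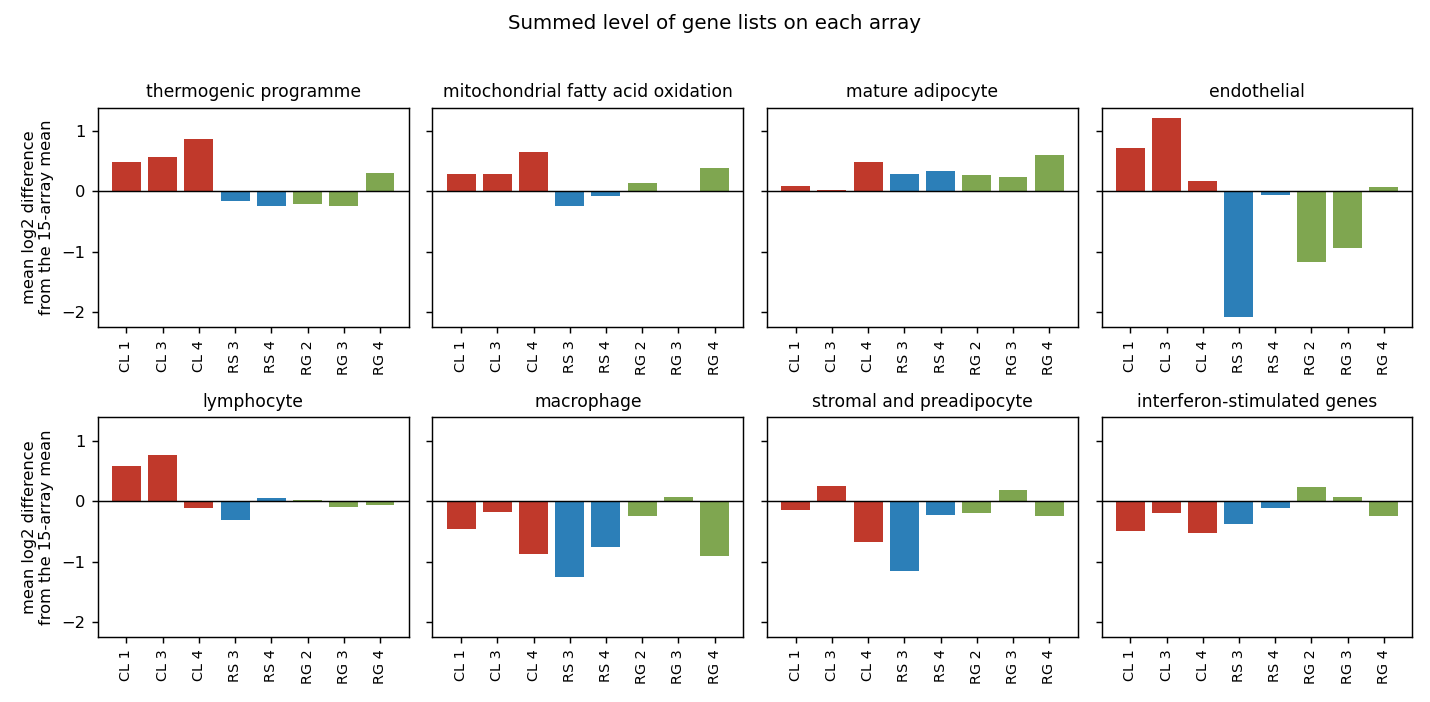
Mean level of 8 gene lists on each of the 8 arrays, as bars of the mean log2 difference of the list's members from the mean of all 15 arrays. The thermogenic list is highest on the CL arrays (0.49, 0.56 and 0.86) and on RG 4 (0.30), and the endothelial list runs from -2.08 on RS 3 to 1.22 on CL 3.

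By array, the thermogenic list averaged 0.49, 0.56 and 0.86 in CL, -0.15 and -0.24 in RS, and -0.20, -0.25 and 0.30 in RG. CL 4 was the highest CL array here and the lowest for endothelial markers, and RG 4 was the highest of the other arrays for both lists. Mitochondrial fatty acid oxidation averaged 0.29, 0.29 and 0.65 in CL, -0.24 and -0.08 in RS, and 0.14, 0.00 and 0.39 in RG, so that RG 4 lay above CL 1 and CL 3. Lymphocyte markers averaged 0.57, 0.75 and -0.11 in CL, -0.31 and 0.06 in RS, and 0.01, -0.10 and -0.06 in RG. CL 1 and CL 3 alone stood apart, with CL 4 inside the range of the others, and the readings of these markers were low.

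**Figure D4:**
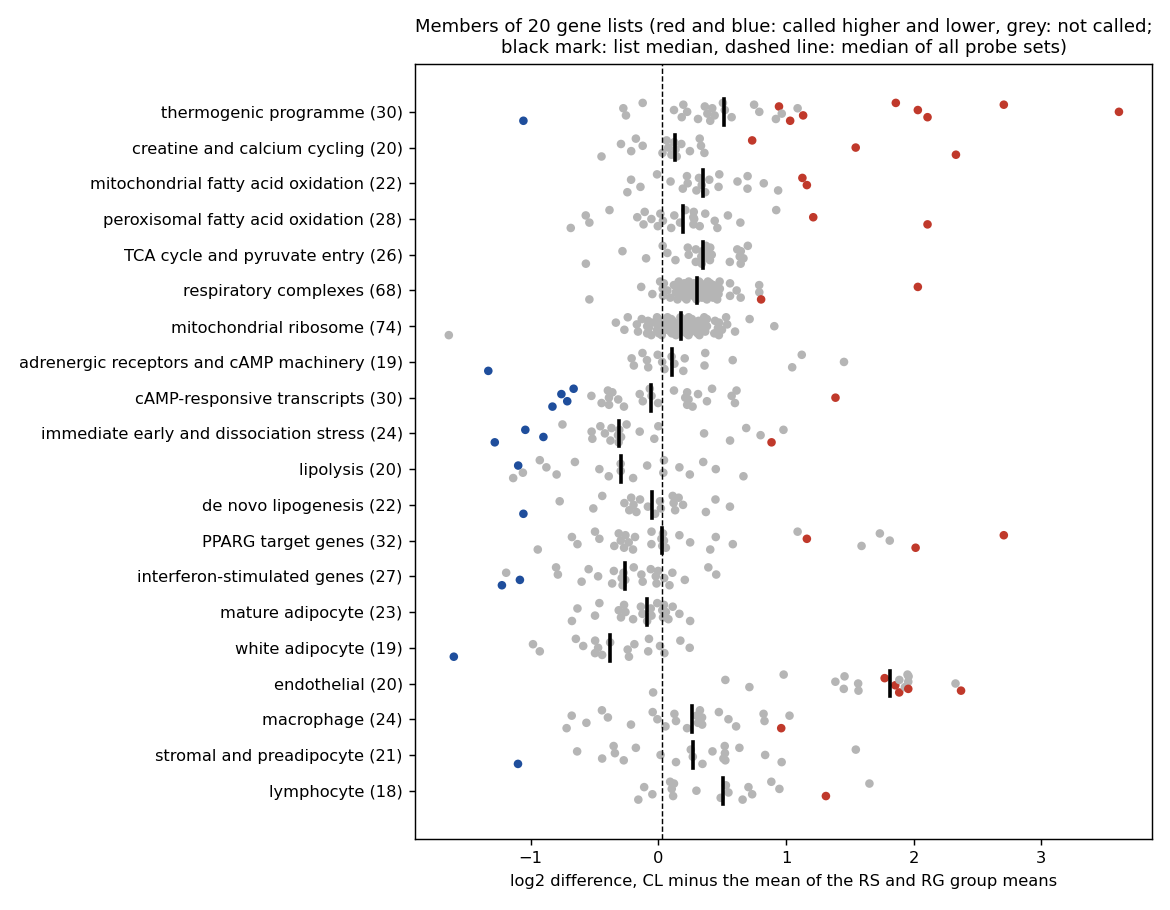
Log2 difference of CL from the mean of RS and RG for the measured members of 20 gene lists, 1 point per gene, with called members in red (higher) or blue (lower), a black mark at each list's median and a dashed line at the median of all probe sets, 0.025. The endothelial list has the highest median, 1.81, with 5 of 20 members called, and the thermogenic list has 9 of 30 called with a median of 0.51.

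The average of RS and RG can hide a gene that differs from one of them only. Against RS alone 321 probe sets passed (1.27%), and against RG alone 724 (2.87%). These comparisons share the CL arrays. Of the 528, all had the same sign in both, 104 passed in both (0.413% of all probe sets, 62 higher and 42 lower), 120 passed against RS only, 222 against RG only and 82 against neither. Elovl3 passed against RS (limma, adjusted p = 0.00182) and RG (adjusted p = 0.00145), as did Phospho1 (0.00182 and 0.00155) and Ucp1 (0.0202 and 0.0307). Of the 30 thermogenic genes, 6 were higher and 1 lower in both. The count of 104 was 29 without CL 1, 26 without CL 3, 32 without CL 4, 24 without RS 3, 11 without RG 2, 14 without RG 3 and 69 without RG 4. RS and RG differed from each other at 172 probe sets (0.682%), of which 6 were among the 528, and this count was 308 without RS 3, 35 without RS 4, 17 without RG 2, 8 without RG 3, 13 without RG 4 and 106 without CL 1.

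**Figure D5:**
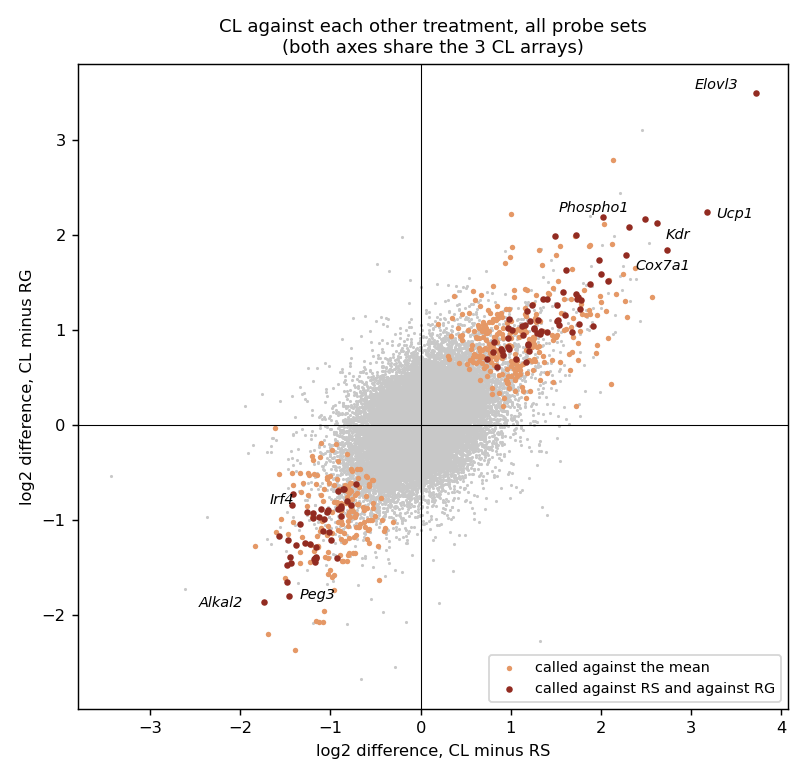
Log2 difference of CL from RS (horizontal axis) against that from RG (vertical axis) for all probe sets, with those called in the comparison with the average of RS and RG coloured. The CL arrays enter both axes, so the trend along the diagonal is partly shared by construction; all 528 called probe sets have the same sign on both axes, and 104 passed in both.

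Brown fat was set beside these calls. BAT and WAT share no array with CL, RS and RG, but deviations of same-numbered arrays were correlated across groups (-0.882 for WAT 2 and RG 2). BAT and WAT also differed in markers of other cells. Macrophage markers averaged 1.55 to 2.22 on the WAT arrays and -1.02 to -0.72 on the BAT arrays. The part of such cells in the overlap was not tested. Between BAT and WAT, 6950 probe sets were higher in BAT (27.6%) and 4146 lower (16.4%). Of the 323 higher in CL, 134 (41.5%, and 1.93% of those higher in BAT) were also higher in BAT and 35 (10.8%) were lower. Of the 205 lower in CL, 110 (53.7%, and 2.65% of those lower in BAT) were also lower in BAT and 19 (9.27%) were higher. All 5 groups entered 1 fit and share its estimate of the spread, and the overlap was not tested.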

How the data were processed

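Sorted cells gave 2 ng of total RNA per array, amplified with Affymetrix's WT Pico reagents, per the labels' protocols. The authors deposited a log2 value for each probe set on each array. Affymetrix Expression Console, RMA and affy 1.36.1 are listed in the submitters' processing notes. Their order, settings and probe set definition are not given in the sources used here. RMA normalizes arrays to a shared distribution of probe values, so a shift common to most genes would not be seen. Of 25206 probe sets, 23185 had 1 gene symbol and 2021 had none. All were tested, and those without a symbol, such as any for Adrb3, are not analysed here by name. Arrays carry no read depth, and their number limits the precision.

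Groups came from the sample titles. limma 3.58.1 in R 4.3.3 (lmFit, contrasts.fit, eBayes) fitted all 15 arrays with 5 group means and 10 residual degrees of freedom. The spread is pooled over groups, so that of RS (2 arrays) is assumed equal to the rest. P-values are two-sided and were adjusted by the Benjamini-Hochberg method across every probe set, with a threshold of 0.05. The fit was also run on simulated data with independent normal values, without any structure by replicate number. That run does not show that the threshold holds for the real arrays.

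The members and the 44 gene lists were chosen with earlier results of these data known. The rule for named genes took the 12 largest increases and 12 largest decreases among called probe sets whose CL arrays did not overlap the others, without predicted genes, odour and taste receptors, small RNAs and immune receptor segments. It also took up to 4 members of each described list by smallest p, and 9 measured marker genes. Other genes were chosen after their values were seen: called members of a list beyond these 4, uncalled thermogenic genes, and genes marked so in the text. A symbol with more than 1 probe set was represented by the brightest on average. Promoters came from RefSeq (GRCm38.p6), matched by symbol. Elovl3, Gng11, Gpihbp1, Thbs1, Rnf122, St6galnac5 and Cdk5 had no entry there.

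The replicate numbers in the titles were not used as pairs in the main fit. Over 24 pairs of same-numbered arrays, deviations from group means correlated between -0.882 and -0.0498. All were below 0, so the values are not free of structure by number, and its source was not tested. Of 15 arrays, 0 correlated best with one of its own number. The lowest was between WAT 2 and RG 2, the only arrays numbered 2. The main fit ignores this structure, so its 10 residual degrees of freedom may be too many and its p-values too small. A fit with the number as a block, with 7 residual degrees of freedom, gave 12 calls instead of 528. Alternatives were median centring, quantile normalization, a mean above 5, the 8 arrays alone, trended robust eBayes, array weights, a replicate block, the plain mean of the 5 RS and RG arrays, each array left out, and RS 3 with WAT 4 left out, the last chosen after seeing the data.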

Additional observations from a re-analysis of the deposited data

Results flagged for a closer look

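For 6 probe sets called in CL against the average of RS and RG, RS and RG also differed from each other by limma's test of that difference. The difference of CL from RS was larger than that from RG in each of them. Tlcd3a, a lipid-sensing domain protein gene, differed between RS and RG by -1.68 (adjusted p = 0.0275), with CL above RS by 2.11 and above RG by 0.43. Rabif, a factor that stabilizes Rab GTPases, differed by -1.52 (adjusted p = 0.0178), with 1.72 and 0.20. Cenpa, the histone H3 variant of centromeres and the only call among 39 genes of DNA replication and mitosis, differed by -0.845 (adjusted p = 0.0493), with 1.32 and 0.47. Tmem150c, a membrane protein gene, differed by -0.88 (adjusted p = 0.0393), with CL 0.29 above RG. Gtf2a1l, a germ cell form of a general transcription factor, differed by 0.91 (adjusted p = 0.0494), with CL below RS and RG by -1.11 and -0.19. Olfr115, an olfactory receptor gene, differed by 1.58 (adjusted p = 0.00341), with -1.61 and -0.03. The call of CL against the average was kept for Cenpa without any one array. It was lost for Tlcd3a and Rabif without CL 3, for Tmem150c without CL 3 or RS 3, for Olfr115 without CL 1 or CL 3, and for Gtf2a1l without any array other than RS 4 and RG 3 (adjusted p up to 0.171). These genes were named because of this difference, after their values were seen.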

How the results depend on the processing

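Main counts were 528 called, 323 higher, 205 lower, 104 called against both RS and RG, and 172 between RS and RG. With only probe sets of a mean over 5 they were 265, 147, 118, 63 and 45. With only the 8 CL, RS and RG arrays, which leaves fewer degrees of freedom, they were 259, 148, 111, 22 and 15. With array weights, the last 2 were 15 and 9, and after quantile normalization RS against RG gave 44; the cause was not tested. Without RS 3 and WAT 4 together, chosen after seeing the data, the last 2 were 33 and 406. With the replicate block, in a fit with 7 residual degrees of freedom, the counts were 12, 9, 3, 0 and 0, with 2907 probe sets at an unadjusted p under 0.05 in the comparison, 831 against both and 2761 between RS and RG. All 12 were among the 528, and they include Elovl3, Phospho1, Acot11, Acsl5, Alpl and Rnd3. Leaving out 1 array gave 107 to 888 called, 66 to 473 higher, 41 to 415 lower, 11 to 152 against both and 8 to 308 between RS and RG. Of 150 genes followed over 17 alternatives, Ppargc1a alone changed direction: at 0.12 with all arrays, it ran from -0.20 without CL 4 to 0.41 without RS 3, and was -0.17 without RS 4. The 3 CL, 2 RS and 3 RG arrays limit what can be detected, and a difference that did not pass is not shown to be absent.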

Other observations

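Other genes called whichever array was left out, all chosen after their values were seen, lie outside the lists above. Clic5, a protein of the chloride channel family, read 7.08, 7.29 and 7.28 in CL and at most 6.50 on the others, the last on RG 4 (difference 1.80, limma, adjusted p = 0.00815). Kcnc2, a voltage-gated potassium channel subunit, read 3.52, 3.82 and 3.83 in CL and 1.92 to 2.46 on the others (1.53, adjusted p = 0.000625). These are low readings, since array medians lay between 3.35 and 3.46. Gnao1, the alpha subunit of the G protein Go, read 6.58, 7.05 and 6.63 in CL and 4.73 to 6.11 on the others (1.48, adjusted p = 0.00124). F2r, a thrombin receptor, read 6.01, 6.29 and 5.96 in CL and 4.40 to 5.27 on the others (1.38, adjusted p = 0.00124). Pla2g2e, a secreted phospholipase of fat, read 6.33, 6.14 and 6.19 in CL and 4.64 to 5.09 on the others (1.34, adjusted p = 0.00803). Chd3, a chromatin remodeller, was higher by 1.29 (adjusted p = 0.00285). In each of these genes the CL arrays lay above all 5 others. The part of endothelial cells, which also carry F2r, was not tested. Ret, a receptor tyrosine kinase, differed by -1.26 (adjusted p = 0.0155), a call lost without CL 3, CL 4 or RS 3.

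Of the remaining lists, that of secreted signals of brown and beige fat (27 measured) gave 2 lower members, Il6 and the growth factor Igf1 (-0.68, limma, adjusted p = 0.0386), the latter kept only without RS 4 or RG 4. Xbp1, a transcription factor of the unfolded protein response, was the only call among 28 genes of that response (-0.79, adjusted p = 0.0222), lost without any CL array, RS 3 or RG 2. Thbs1 was the only call among 39 genes of the extracellular matrix. White adipokines (13 measured), liver-type secreted proteins (32) and proteasome subunits (37) gave 0 calls, with 4, 8 and 2 members at an unadjusted p under 0.05 in either direction. The white adipokines had a median of -0.47 and 2 of 13 above 0.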
